A study of Mus musculus with 11 samples.

Results

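Tac2, Mrap, Sphk1, Gjb2, Aqp3, Pdia2, Tlcd4, Myh7b and Spon2 are 9 mouse genes chosen for a large difference between the first and second of 5 sorted stages of red cell formation in the fetal liver. They are 9 of the 18193 genes named on the array and 9 of the 13100 genes tested. They were picked on the difference of R2 from R1, so that difference is described here and not tested. After R2 their courses parted. The signal of Gjb2, a gap junction protein, was highest in R2 and lower in every later stage. That of Sphk1, which makes sphingosine 1-phosphate, was also highest in R2, on the brighter of its 2 probe sets. Tac2, Mrap, Tlcd4 and Pdia2 were highest in R3 and lower in the most mature stage, R5, by up to 4.44 on the log2 scale for the hormone precursor Tac2. The water and glycerol channel gene Aqp3 and the myosin gene Myh7b were within 0.34 and 0.06 of their R3 level in R5 on the probe sets used, and Spon2, a secreted matrix protein, was higher in R4 and R5 than in R3. None of the 9 differences between R5 and R3 passed an adjusted p of 0.05, where 1 of all 13100 genes did (0.00763%), although Tac2, Mrap, Tlcd4 and Pdia2 passed with each array centred on its median, a setting under which 588 of all genes passed.

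Red cells form in the fetal liver from progenitors. In the course of maturation the cells take up iron through the transferrin receptor, CD71, and stop expressing progenitor genes such as Kit. They also fill with haemoglobin and acquire the membrane antigen Ter119. CD71 and Ter119 together order the cells from early progenitors to late erythroblasts. The cells compared here came from livers of C57/Bl6 embryos at E14.5 (days of gestation), with no treatment and no genetic change named for any group. Freshly isolated liver cells were sorted on these antigens into R1, the least mature, through R5, the most mature. Total RNA was hybridised to 11 arrays, 2 for R1, 3 each for R2 and R3, 1 for R4 and 2 for R5. The sources used here do not say if different litters or sorts lie behind the replicates. The labels state that RNA extraction of a replicate set took place on 1 date, without saying if a set is a replicate number or a stage. Each p-value then measures the spread of these arrays alone, and that spread may be technical. A sort gate holds a mixture of cells, and in such bulk samples fewer cells of a type and less RNA per cell cannot be told apart.

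The stage labels were checked against markers. Of 11 erythroid markers on the array, all were higher in R2 than in R1 and 6 passed the test, against 0.351% of all genes called higher in that comparison (limma, Benjamini-Hochberg adjusted p under 0.05). Tfrc, which encodes CD71, was at a log2 signal of 12.44 in R1, 13.95 in R2, 15.43 in R3 and 15.62 in R5. Kit fell by 2.60 on the log2 scale from R2 to R3 (SE 0.39, adjusted p = 0.00228 by limma). Of 10 progenitor markers, Kit among them, 2 were called lower over that step and 2 were higher, with a median of -1.45. From R3 to R5 all 10 were higher, by a median of 1.54, with 0 called. Of the 11 erythroid markers, 7 were higher in R5 than in R3, with 0 called and a median of 0.27. These lists therefore do not set R5 apart as more mature than R3. Of 11 hepatocyte markers, 0 were higher in R2 than in R1, while 11 were higher in R3 than in R2, 9 of them past the test. Their summed signal was 14600 and 18900 on the R1 arrays and 3580 to 11400 on the R2 arrays. It was 69400 to 112000 for R3, 103000 for R4, and 85100 and 240000 for R5, with none of the 11 at 0. Granulocyte markers had a summed signal of 222000 and 213000 in R1, 81700 to 205000 in R2 and 77600 to 213000 in R3. Theirs was 133000 in R4, and 253000 and 271000 in R5. A control for RNA quality, pyruvate carboxylase, moved with stage, while another, actin, showed no such course. For the pyruvate carboxylase control, the 3′ probe set exceeded the 5′ probe set on the log2 scale by 0.20 and 0.38 on the R1 arrays, by 0.75 to 1.84 on those of R2, by 2.45 to 3.29 on those of R3, and by 4.62 and 2.27 on those of R5. For the actin control that difference was 0.35 and 0.25 in R1, 0.32 to 0.79 in R2 and 0.24 to 0.83 in R3. It was 0.21 in R4, and 0.43 and 0.44 in R5. The part of hepatocyte or granulocyte RNA, or of RNA quality, in the results below was not tested. Within a stage, arrays correlated across genes with r between 0.851 and 0.950, none held identical values, and the median signal per array ran from 53.6 to 120.

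All values below are log2 of the deposited signal for 1 probe set per gene, a group of short probes read as 1 value. Levels of different probe sets are not on a common scale and are not compared between genes. Differences are on the log2 scale, so that 1 is a doubling, and carry the standard error (SE) of a fit over all 11 arrays. The 9 genes span differences of R2 from R1 of 3.00 to 5.43, with a median of 3.32, where the median of all genes was -0.05. Of all tested genes, 23 had a difference at or above that of Aqp3, the lowest of the 9, and 11 of these were called. These calls include the 9 genes, where 0.351% of all genes were called higher. The 9 were picked on this same difference, so their calls are no test of them. The 2 that were called and are not among the 9 are Lmna, the gene of the nuclear lamins A and C, at 3.06 (SE 0.44), and the unnamed transcript 6030468B19Rik at 4.43 (SE 0.65). Just outside lay Hephl1 at 3.00 (SE 1.17), Ano1 at 2.98 and Bcl2l15 at 2.94, and just inside, though not chosen, lay the unnamed transcript 1700019N19Rik at 3.02 and Kcnip2 at 3.09.

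Calling the 9 genes switched on goes further than the arrays do for some of them. For 6 of the 9 genes at least 1 R1 array read below that array's own median, in 9 of 18 values over all 9 genes, and 0 of 27 values did in R2. Sphk1, Tlcd4 and Pdia2 were above the array median on both R1 arrays, so for these a raised signal is what was measured. No detection calls were used. R2 replicate 3 gave the highest of the 3 R2 values for 9 of 9 genes, where it did so for 35.9% of all genes. With arrays centred on their medians the counts were 8 of 9 and 20.5%. On that array the erythroid markers were also highest in R2, at a mean log2 of 12.78 against 11.35 and 12.22. Its progenitor markers were lowest, at 8.25 against 9.62 and 9.79. So were its granulocyte markers, at 11.21 against 12.97 and 13.43, with a summed signal of 81700 against 197000 and 205000. R1 replicate 1 read higher than R1 replicate 2 for 8 of 9 genes, beside 51.5% of all genes. After centring on array medians these were 8 of 9 and 76%, so the count was then closer to the share of all genes. The summed lymphocyte signal was 3590 on R1 replicate 1 and 39400 on R1 replicate 2, and 910 to 6940 in R2. Lymphocyte markers were higher in R2 than in R1 for 0 of 10 genes (median -2.17), and mast cell and basophil markers for 0 of 9 (median -2.52), with a summed signal of 11900 and 12000 in R1 and 770 to 4580 in R2. The part of these marker signals in the R1 and R2 values was not tested.

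Sequence before the start of transcription was available from RefSeq (GRCm38.p6) for 7 of the 9 genes, as 12 windows of 250 bases. These genes were chosen for moving together from R1 to R2, so the windows were searched for the short word bound by GATA factors, which drive red cell genes. The letters searched for on both strands were AGATAA first, next the word TGATAA, next the word AGATAG and last the word TGATAG. They occurred in 4 of the 12 windows, belonging to Myh7b, Pdia2 and 2 overlapping windows of Sphk1, and in 26.5% of all 32851 windows of the same length. The CCNCNCCC word of KLF-type factors, also on both strands, occurred in 10 of 12 windows, among them all 5 of Sphk1, and in 45.9% of all windows. By gene it was found for 5 of 7, as some windows of Sphk1 and of Tlcd4 overlap and share sites. No share by gene was computed for all genes. A match is a description of the letters and not of binding. The windows printed here, 5′ to 3′ on the gene's strand and ending just before the start, are those of 1 gene with its highest signal in R2 alone (Gjb2, chr14:57104703-57104952, minus strand), 2 with a peak in R3 (Tac2, chr10:127724228-127724477, plus strand, and Pdia2, chr17:26199088-26199337, minus strand) and 1 that kept its signal (Myh7b, chr2:155610993-155611242, plus strand). Capitals mark the GATA words on either strand.
Gjb2: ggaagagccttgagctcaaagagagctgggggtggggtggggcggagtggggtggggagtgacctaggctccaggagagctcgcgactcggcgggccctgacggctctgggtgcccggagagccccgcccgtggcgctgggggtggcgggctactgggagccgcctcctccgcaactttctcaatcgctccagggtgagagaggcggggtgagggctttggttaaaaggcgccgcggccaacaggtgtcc
Tac2: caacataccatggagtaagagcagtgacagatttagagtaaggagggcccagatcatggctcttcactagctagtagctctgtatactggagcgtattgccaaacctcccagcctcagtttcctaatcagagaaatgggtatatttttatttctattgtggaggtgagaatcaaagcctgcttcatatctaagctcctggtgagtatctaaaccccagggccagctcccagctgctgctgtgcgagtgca
Pdia2: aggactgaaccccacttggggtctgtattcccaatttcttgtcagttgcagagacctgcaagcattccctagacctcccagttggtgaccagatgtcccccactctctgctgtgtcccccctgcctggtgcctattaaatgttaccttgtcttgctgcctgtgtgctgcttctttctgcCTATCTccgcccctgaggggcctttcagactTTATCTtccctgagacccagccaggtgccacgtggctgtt
Myh7b: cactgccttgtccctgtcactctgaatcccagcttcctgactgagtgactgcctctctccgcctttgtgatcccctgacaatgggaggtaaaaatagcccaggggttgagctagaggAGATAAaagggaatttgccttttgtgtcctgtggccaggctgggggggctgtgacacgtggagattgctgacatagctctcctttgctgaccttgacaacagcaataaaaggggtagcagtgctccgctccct
The word begins 133 bases before the start in Myh7b, and 71 and 40 bases before it in Pdia2, where both copies lie on the other strand. The windows of Tac2 and Gjb2 hold none, which says only that these letters are not in these windows.

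Tac2 encodes the precursor of neurokinin B, a tachykinin peptide best known as a signal between neurons. Its log2 signal was 2.02 and 2.64 on the R1 arrays, 6.19, 7.63 and 9.46 in R2, 10.26, 9.51 and 10.21 in R3, 8.89 on the R4 array, and 5.09 and 6.01 in R5. Each R2 array was above both R1 arrays, each R3 array was above each R2 array, and both R5 arrays were below every array of R2, R3 and R4. From R1 to R2 Tac2 differed by 5.43 (SE 0.79), and it stood another 2.23 (SE 0.71) higher in R3. Both R1 arrays lay below the array median, so the size of the first difference depends on dim values, and it was 2.37 with 50 added to each signal before the log. The R2 arrays were 3.27 apart from lowest to highest, the widest R2 spread among the 9 genes. In R5 it was lower than in R3 by 4.44 (SE 0.79), a 21.8-fold difference and the lowest value of all genes in that comparison. That difference stopped just short of the threshold (limma, adjusted p = 0.0511; range 0.0106 to 0.158 over the alternatives), and it was at least 3.45 in size under every alternative. By mean level the stages ran R1, R5, R2, R4, R3, and R4 lay within the spread of the R2 arrays. In R5 the mean signal stood 3.22 above that of R1. Both R5 arrays were below the array median, as were both R1 arrays. The sizes of the differences of R5 from R1 and from R3 therefore depend on dim values.

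Mrap encodes the accessory protein that carries the receptor for the pituitary hormone ACTH, Mc2r, to the cell surface. The R1 arrays read 7.19 and 4.33, those of R2 read 9.56, 9.67 and 11.04, those of R3 read 11.77, 10.16 and 10.78, R4 read 10.13, and R5 read 8.62 and 7.60. The R1 arrays were 2.86 apart, and even the higher one was below all arrays of the other stages. From R1 to R2 the difference was 4.33 (SE 0.80), 20.1-fold, or 2.90 without R1 replicate 2, the lower array. R2 overlapped with R3 and R4, and R5 was lower than R3 by 2.79 (SE 0.80, limma adjusted p = 0.134; range 0.0405 to 0.294 over the alternatives with this probe set). A second Mrap probe set was below the array median on all 11 arrays and adds no level. Mc2r, the receptor itself, read 6.92 and 6.80 in R1, 8.43, 7.84 and 8.59 in R2, and 6.15, 3.57 and 6.68 in R3. It fell from R2 to R3 by 2.82 (SE 0.70, limma adjusted p = 0.0209), while Mrap stood 0.81 (SE 0.71) higher in R3. The Mc2r values of 6.15 and 3.57 in R3 were below the array medians of 6.45 and 6.18, so this size depends on dim values. In R5 Mc2r was 1.56 above R3 (limma adjusted p = 0.297). Its difference between R2 and R1, 1.43 (SE 0.78), did not pass the test (adjusted p = 0.474).

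Sphk1 phosphorylates sphingosine to sphingosine 1-phosphate, a lipid signal of which red cells hold a large store in blood. Its log2 signal was 9.07 and 7.32 in R1, 11.49, 11.17 and 11.87 in R2, 10.73, 10.97 and 10.67 in R3, 10.30 on the R4 array, and 8.97 and 10.13 in R5. It was highest in R2, 3.32 (SE 0.51) above R1, or 9.96-fold. From there it was lower by 0.72 (SE 0.45) in R3 and by a further 1.24 (SE 0.51, limma adjusted p = 0.231) in R5, where 1 of 2 arrays lay within the range of R1. The other Sphk1 probe set followed another course. It read 0.93 and 2.22 in R1, 6.93, 6.39 and 7.78 in R2, 8.78, 8.38 and 8.49 in R3, 8.82 on the R4 array, and 8.96 and 8.94 in R5. It too was higher in R2 than in R1, where both its arrays were far below the array median, and it stood 1.52 higher in R3 and 0.40 higher again in R5. Both probe sets therefore share the step from R1 to R2 and differ in sign after it, and no single course of Sphk1 after R2 can be given from these arrays. Which transcripts each probe set reads was not tested.

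**Figure D1:**
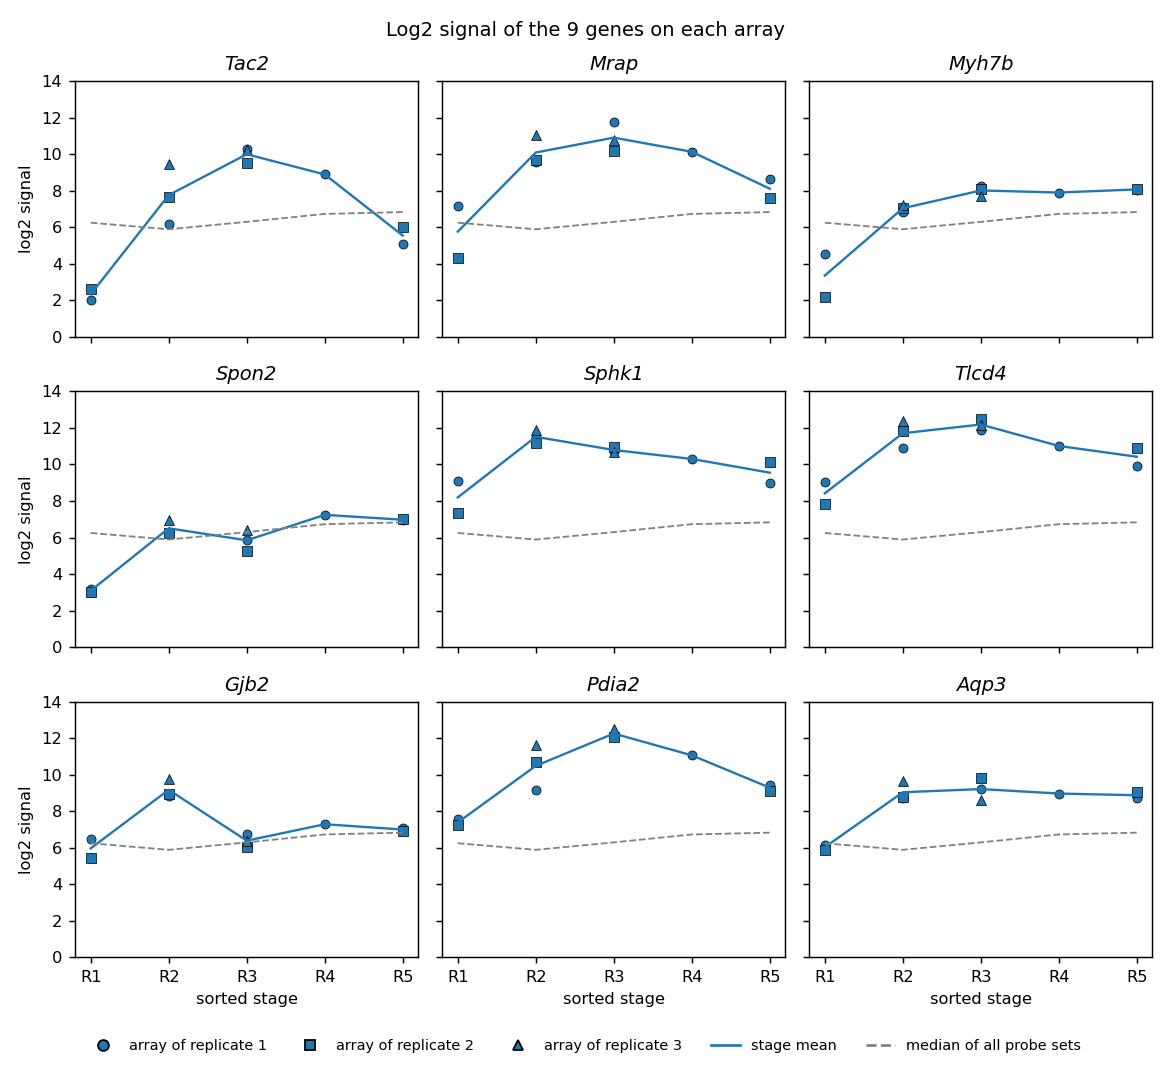
Log2 signal of each of the 9 genes (vertical axis) by sorted stage R1 to R5 (horizontal axis). Each symbol is 1 array, the solid line joins stage means, and the dashed line is the mean per stage of the arrays' medians over all probe sets. Gjb2 stands out in R2 alone, Tac2, Mrap, Tlcd4 and Pdia2 have their highest mean in R3, and all 9 means are higher in R5 than in R1, by 1.03 for Gjb2 to 4.71 for Myh7b.

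Gjb2 encodes connexin 26, which forms channels between neighbouring cells. It read 6.5 and 5.44 in R1, 8.81, 8.94 and 9.77 in R2, 6.73, 6.06 and 6.38 in R3, 7.29 on the R4 array, and 7.07 and 6.93 in R5. No R2 array overlapped any array of another stage. R2 stood 3.20 (SE 0.48) above R1, 9.18-fold, and R3 was lower than R2 by 2.78 (SE 0.43), 6.87-fold, which put 2 of 3 R3 arrays back inside the range of R1. A gene picked for high R2 arrays is favoured to read lower elsewhere, so the second of these is given without a test. Between R3 and R5 it was higher by 0.61 (SE 0.48, limma adjusted p = 0.483), beside a median of 0.20 for all genes. With each array centred on its median that difference was 0.07.

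Aqp3 encodes an aquaglyceroporin, a membrane channel that passes both water and glycerol. Its values were 6.17 and 5.90 in R1, 8.72, 8.77 and 9.63 in R2, 9.22, 9.83 and 8.59 in R3, 8.97 on the R4 array, and 8.72 and 9.03 in R5. All 9 arrays after R1 lay above both R1 arrays and overlapped each other from stage to stage. The signal stood 3.00 (SE 0.44) above R1 in R2, 8-fold, and then differed by 0.18 (SE 0.39) from R2 to R3 and by -0.34 (SE 0.44, limma adjusted p = 0.672) from R3 to R5. With arrays centred on their medians the first of these was -0.23. Of 3 other Aqp3 probe sets, 1 was below the array median on all arrays. The remaining pair differed from R1 to R2 by 4.12 and 3.03 and stood 1.03 and 1.32 lower in R5 than in R3. Aqp1, the main water channel of red cells, read 9.92 and 9.99 in R1, 11.50, 12.05 and 13.00 in R2, and 10.14 and 11.55 in R5. All its R2 arrays were above R1, by 2.23 on average (SE 0.56), which did not pass the test (limma adjusted p = 0.133).

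Pdia2 encodes a protein disulfide isomerase of the endoplasmic reticulum, an enzyme class that forms and rearranges disulfide bonds in newly made proteins, and is known mainly from the pancreas. It read 7.55 and 7.23 in R1, 9.14, 10.67 and 11.64 in R2, 12.18, 12.06 and 12.52 in R3, 11.06 on the R4 array, and 9.45 and 9.13 in R5. The R2 arrays were spread over 2.50, between levels close to R5 and levels close to R3. R2 stood 3.10 (SE 0.57) above R1, 8.55-fold, and R3 stood 1.77 (SE 0.51) above R2 with no overlap. R5 was lower than R3 by 2.96 (SE 0.57), 7.77-fold (limma adjusted p = 0.0525; range 0.0128 to 0.178 over the alternatives). Both R5 arrays were still above both R1 arrays, by 1.91 on average.

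Tlcd4 encodes a membrane protein with a TLC domain, a fold shared with ceramide synthases. Its signal was 9.02 and 7.82 in R1, 10.91, 11.82 and 12.39 in R2, 11.90, 12.47 and 12.18 in R3, 11.01 on the R4 array, and 9.94 and 10.90 in R5. R2 and R3 overlapped and were the highest stages, and R5 lay between them and R1 without overlap. R2 stood 3.29 (SE 0.50) above R1, 9.75-fold, and R5 was lower than R3 by 1.76 (SE 0.50), 3.39-fold (limma adjusted p = 0.132; range 0.0421 to 0.260 over the alternatives with this probe set). Its 3 other probe sets had the same sign in both comparisons, from 1.54 to 2.66 for R2 against R1 and from -1.89 to -0.67 for R5 against R3.

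Myh7b encodes a myosin heavy chain of slow and cardiac muscle type. It read 4.55 and 2.17 in R1, 6.86, 7.06 and 7.20 in R2, 8.23, 8.12 and 7.69 in R3, 7.90 on the R4 array, and 8.05 and 8.09 in R5. Every R3 array was above every R2 array, and the R3, R4 and R5 arrays lay within 0.54 of each other. R2 stood 3.68 (SE 0.62) above R1, where both arrays were below the array median. This difference was 2.49 without R1 replicate 2, the lower array, and 1.52 with 50 added to each signal before the log. R3 stood 0.97 (SE 0.56) above R2, and R5 differed from R3 by 0.06 (SE 0.62, limma adjusted p = 0.963). Its signal was further above R1 in R5 than in R2, by 4.71 against 3.68, as was that of Spon2, by 3.89 against 3.42.

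Spon2 encodes spondin 2, a secreted protein of the extracellular matrix that takes part in innate immune responses. Its values were 3.16 and 3.02 in R1, 6.30, 6.26 and 6.96 in R2, 5.86, 5.28 and 6.40 in R3, 7.24 on the R4 array, and 6.96 and 6.99 in R5. The signal was modest throughout, and 2 of the 3 R3 arrays were below the array median. R2 stood 3.42 (SE 0.59) above R1, R3 was lower than R2 by 0.66 (SE 0.53) with overlap, and R5 was higher than R3 by 1.13 (SE 0.59, limma adjusted p = 0.313) without overlap. Both R1 arrays were below the array median, and with 50 added to each signal before the log the difference from R1 to R2 was 1.28. A second Spon2 probe set was below the array median on all 11 arrays.

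The 9 genes were picked on R1 and R2, and the comparison of R5 with R3 is the one tested for them. It is not fully apart from the choice. The probe set of each gene was picked by its mean over all 11 arrays, R3 and R5 included. The genes and tests were also chosen with earlier results of these data known. None of the 9 was called, and 1 of 13100 genes was. That gene, named after its value was seen, was Pask, which encodes a nutrient-sensing kinase and was lower in R5 by 2.73 (SE 0.32, limma adjusted p = 0.0467). At an unadjusted p under 0.05, 5 of the 9 genes passed, all lower in R5 (Tac2, Mrap, Sphk1, Tlcd4 and Pdia2), where 19% of all genes passed in either direction. The count was 3 without R5 replicate 1, beside 22.9% of all genes. Sphk1 counts here by its brighter probe set, and its other probe set was 0.40 higher in R5. The arrays of these 5 genes did not overlap between R5 and R3, and 13.6% of all genes were lower without overlap. Spon2 and Gjb2 were higher without overlap, as were 22.8% of all genes, and Myh7b and Aqp3 overlapped. With each array centred on its median, Spon2 and Gjb2 overlapped too, and their differences were 0.59 and 0.07. The median difference of the 9 genes was -1.24, beside 0.20 for all genes. The scale of the arrays bears on these calls. With each array centred on its median, which put the median of all genes at -0.34 in place of 0.20, Tac2, Mrap, Tlcd4 and Pdia2 were called lower (limma adjusted p = 0.0106, 0.0405, 0.0421 and 0.0128), as were 578 of all genes. With quantile normalization, which put that median at 0.02, Tac2 was called (adjusted p = 0.0299) and 14 of all genes were. Without R5 replicate 1, Pdia2 was called (adjusted p = 0.0439), and 633 of all genes were. Over the same 2 stages the hepatocyte markers were higher in R5 for 11 of 11 genes and the progenitor markers for 10 of 10, with 0 called in either list by limma and 2 and 7 of them at an unadjusted p under 0.05. The summed progenitor signal was 2880 to 6490 in R3 and 24700 and 7510 in R5. Lymphocyte markers were higher in R5 for 10 of 10 genes (median 2.30), mast cell and basophil markers for 9 of 9 (median 1.40) and endothelial and stromal markers for 12 of 12 (median 1.15), with 0 called in each by limma. The summed lymphocyte signal was 733 to 1800 in R3 and 4160 and 7410 in R5. That of mast cell and basophil markers was 967 to 1460 and then 7370 and 1800, and that of endothelial and stromal markers 1270 to 2240 and then 5310 and 2260. The part of these lists in the lower signals was not tested.

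R3 was compared with R2 as a description, because the R2 arrays had helped to choose the genes. The signal was higher in R3 for 6 of the 9 genes and lower for Spon2, Sphk1 and Gjb2, with a median of 0.47 beside -0.14 for all genes. With each array centred on its median it was higher for 5 of the 9, as the sign for Aqp3 turned. Tac2, Myh7b and Pdia2 were higher without overlap (22.6% of all genes), and Sphk1 and Gjb2 lower without overlap (27.4%). Set against R1, all 9 genes were higher in R5, from 1.03 for Gjb2 to 4.71 for Myh7b. The arrays of 8 did not overlap, Sphk1 being the exception, and 29.2% of all genes were higher without overlap. The choice of genes low in R1 favours that direction.

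**Figure D2:**
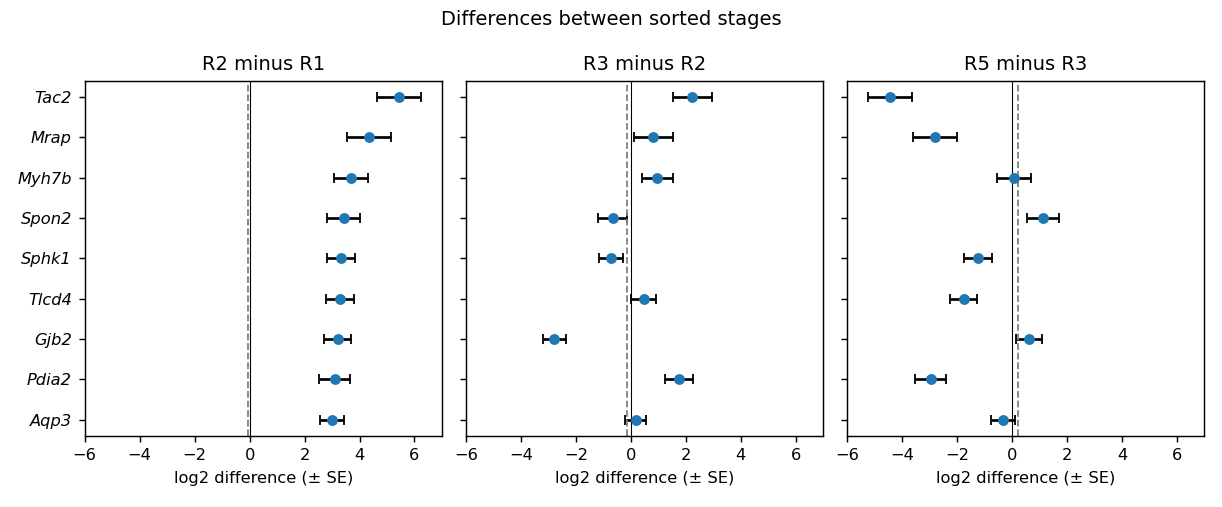
Log2 differences between stages (horizontal axis) for the 9 genes, with the SE of the fit as error bars. The dashed line is the median of all 13100 genes, and the solid line is 0. From R2 to R3 the values run from -2.78 for Gjb2 to 2.23 for Tac2, and from R3 to R5 from -4.44 for Tac2 to 1.13 for Spon2.

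Among the 9 genes, all 36 pairs correlated positively over the 11 arrays, with Pearson's r from 0.22 for Gjb2 and Pdia2 to 0.98 for Tac2 and Pdia2 and a median of 0.78. The 2 R1 arrays, low in all 9 genes by choice, are shared by every pair, so these correlations are a description. For each gene the 3 most similar of all tested genes, leaving out unnamed transcripts, were found by Pearson's r over the 11 arrays, which share stage and library. Tac2 was followed by Pdia2 (r = 0.98), the transglutaminase gene Tgm2 and the microtubule-binding Camsap2 (both 0.97). Pdia2 was followed by Parvb, an adaptor of integrin-linked kinase, by Tac2 (both 0.98) and by Tgm2 (0.97). Tgm2 had mean log2 signals of 8.91, 11.17, 12.39, 11.40 and 10.66 from R1 to R5, the same order of stages as in Tac2 and Pdia2. Mrap was followed by the zinc transporter gene Slc39a8, the coregulator Cited4 and Pklr, the pyruvate kinase of liver and red cells, each at 0.97. Slc39a8 peaked in R3 at 12.77 and was at 10.29 in R5.

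Myh7b was followed by Cyb5r3, the enzyme that keeps haemoglobin reduced (0.98), Lmna and the sialyltransferase gene St6galnac5 (both 0.97). Aqp3 was followed by Epor, the erythropoietin receptor (0.95), Garem1 and Cyth3 (both 0.94). Epor read 9.18, 11.63, 12.73, 12.26 and 11.80 from R1 to R5 on average. Without the 2 arrays farthest from the median these correlations were lower, at 0.86, 0.80 and 0.68 for Myh7b and 0.65, 0.53 and 0.50 for Aqp3, so they rest largely on the R1 arrays. Those of Tac2 were then 0.97, 0.96 and 0.93, and those of the other 6 genes ran from 0.69 to 0.97. Sphk1 was followed by Myh10 (0.97), Septin8 (0.96) and Nags (0.93), and Tlcd4 by Txnl1 (0.97), Asns and Fam83g (both 0.96). Gjb2 had Slc35g1 (0.94), Sh2d4a (0.92) and Acsl6 (0.91), each with its highest mean in R2. Spon2 had the weakest neighbours, Prelp (0.90), Ghrl and Lyrm4 (both 0.89), and was the one of the 9 with 1 gene at r of 0.9 or more, where Tac2 had 48.

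Other genes of the same families and pathways were counted beside all genes. Of 136 such genes, 77 could be tested. Between R1 and R2, 1 of the 77 was called higher and 0 lower (1.3%), where 0.466% of all genes were called. With 1 gene called, these shares cannot be told apart. That gene was Myh10, a nonmuscle myosin heavy chain, at 11.04 and 10.05 in R1 and 12.36, 12.13 and 12.74 in R2, a rise of 1.87 (SE 0.34, limma adjusted p = 0.0486). The count stayed at 1 in 6 of 17 alternatives and was 0 in the rest, among them those without any 1 of the R1 or R2 arrays. The median of the 77 was -0.18, beside -0.05 for all genes. At an unadjusted p under 0.05, 5 were higher and 10 lower. Between R5 and R3, 0 of the 77 were called by limma, 14 were higher and 5 lower at an unadjusted p under 0.05, and the median was 0.73.

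From R2 to R3, 10 of the 77 related genes were called higher and 11 lower, 27.3% in all beside 20.7% of all genes. Here and in the next paragraph, rose and fell are used only of genes that passed the test. Called or not, 31 of the 77 were higher in R3. With each array centred on its median, 6 rose and 23 fell, where 862 of all genes rose and 3103 fell. With quantile normalization 7 rose and 11 fell, where 1172 of all genes rose and 862 fell. The number called, 21, was 8 without R2 replicate 1, 10 without R2 replicate 2 and 9 without R3 replicate 2. The disulfide isomerase family, to which Pdia2 belongs, had 20 tested genes, of which 2 rose and 6 fell, with a median of -1.15. Erp29, an endoplasmic reticulum chaperone, fell by 2.27 (SE 0.44, limma adjusted p = 0.00808), and Pdia6 fell by 1.85 (SE 0.47, adjusted p = 0.0229), while Casq2, a calcium-binding protein of muscle, rose by 2.85 (SE 0.80, adjusted p = 0.0322, and 0.0635 with quantile normalization). The R2 values of Casq2, 1.99, 3.92 and 5.18, were below the array medians of 5.74, 5.87 and 6.06. Pdia2 stood 1.77 higher over the step from R2 to R3. Both tested genes of the connexin and pannexin family passed the test. Panx1 fell by 3.99 (SE 0.65, limma adjusted p = 0.00344), and Gja1, another gap junction gene, fell by 2.57 (SE 0.66, adjusted p = 0.0231). The R3 values of Panx1, 4.52, 3.93 and 3.84, were below the array medians of 6.45, 6.18 and 6.26, so its size depends on dim values. In R5 Panx1 was 3.01 above R3 (limma adjusted p = 0.0926). Gja1 read 7.48, 5.95 and 6.17 in R3, of which 5.95 and 6.17 were below the array medians. In R5 Gja1 was 1.61 above R3 (limma adjusted p = 0.263). Gjb2 was lower by 2.78 from R2 to R3.

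Of 26 sphingosine 1-phosphate genes, 3 rose and 2 fell from R2 to R3 by limma, 19.2% beside 20.7% of all genes. The receptor gene S1pr2 fell by 3.07 (SE 0.63, adjusted p = 0.0099), and the lipid phosphatase genes Plpp1 and Plpp3 rose by 2.26 (SE 0.53) and 1.91 (SE 0.47). S1pr2 in R3 (3.47, 3.04 and 5.40) and Plpp3 in R2 (5.02, 5.55 and 5.84) were below the array medians, so these sizes depend on dim values. In R5 S1pr2 was 3.37 above R3 (limma adjusted p = 0.0633). Mfsd2b, the exporter of sphingosine 1-phosphate from red cells, stood 1.22 (SE 0.38, adjusted p = 0.200) above R1 in R2. It then rose by 1.04 (SE 0.34, adjusted p = 0.0497) to R3, a call lost under both other scalings. Among TLC domain genes, 2 of 6 rose, Cln8 by 2.20 (SE 0.42) and Tlcd1 by 1.74 (SE 0.46), the latter with an adjusted p of 0.0585 by limma when arrays were centred. Among genes listed with the spondins, 2 of 4 rose, Reln by 4.47 (SE 0.78) and Rspo2 by 3.02 (SE 0.59). Their R2 values were 3.46, 6.55 and 6.46 for Reln and 5.99, 4.31 and 3.75 for Rspo2, in part below the array medians. Aqp8 rose by 2.12 (SE 0.61, adjusted p = 0.0347), 1 of 7 aquaporin genes, a call lost under both other scalings. None of the 4 tested tachykinin genes and none of the 4 myosin heavy chain genes was called over that step. Over the same step the hepatocyte markers were higher in R3 for 11 of 11 genes, 9 of them called, with a median of 3.45. Endothelial and stromal markers were higher for 11 of 12, 4 of them called, with a median of 1.59. The part of both lists in these rises was not tested. The summed endothelial and stromal signal was 538 to 643 in R2 and 1270 to 2240 in R3.

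**Figure D3:**
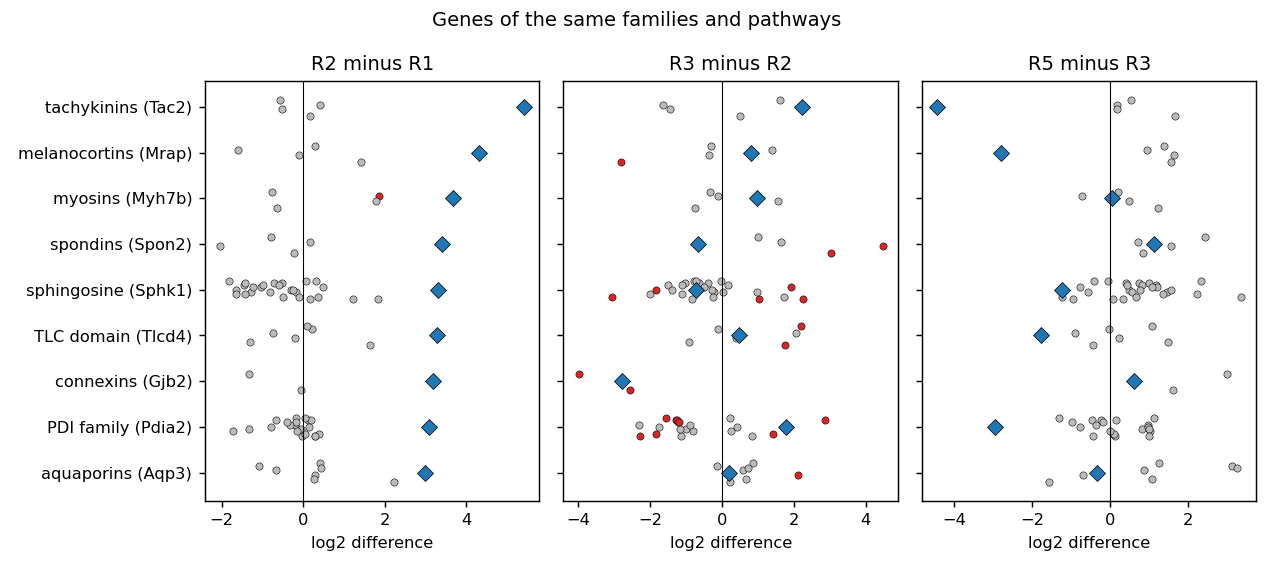
Log2 differences between stages (horizontal axis) for genes of 9 families or pathways (rows), each with 1 of the 9 chosen genes as a blue diamond. Circles are the 77 other tested genes, red where the adjusted p was under 0.05 and grey elsewhere. From R1 to R2 the chosen genes lie to the right of every family member, by their choice, and from R2 to R3 10 circles are red to the right of 0 and 11 to its left.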

How the data were processed

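For every array the authors deposited linear intensity values of 45101 probe sets, 64 of them controls. MAS5 and limma are named in the submitters' processing notes, without versions. The trimmed mean of the deposited intensity, leaving out 2% at each end, was 500 on every array. A second deposited table, for 45037 probe sets, holds the authors' log2 stage means, their log2 differences to R2 and their p-values, and its means matched those computed here within 0.005. Per the labels, RNA was labelled with Cy5, and which labelling step applied to this array is not settled.

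Intensities were taken as log2 with no offset and no further normalization. Names came from the platform annotation: 34945 probe sets had 1 gene, 932 had several and were not used, and 9160 had none. Of the probe sets of a gene, the one brightest on average over all arrays stood for it (18193 genes), and 13100 genes at or above the array median on at least 2 arrays were tested. A mean per stage was fitted to all 11 arrays with limma 3.58.1 (R 4.3.3; eBayes with an intensity trend, 6 residual and 4.83 prior degrees of freedom), with Benjamini-Hochberg adjustment over all tested genes and a threshold of 0.05. The fit pools the spread of all stages, and R4, with 1 array, adds none. The number of arrays limits the precision.

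The 9 genes, the family and marker lists and the tests were chosen with earlier results of these data known. Named are the 9 genes, the 3 most similar to each, up to 3 called genes per family and comparison, neighbours of the lowest of the 9, Aqp1, Mfsd2b, Tfrc and Kit; a further gene of the rule is not reported here. Alternatives were quantile normalization, centring each array on its median, an offset of 50, no filter, no trend, only the stages compared, the replicate number as a block, other probe sets, and leaving out each array.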

Additional observations from a re-analysis of the deposited data

How the results depend on the processing

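The number of arrays limits every statement here, and R5 and R1 rest on 2 each. Of 17 alternatives, 10 left out 1 array. For R5 against R3, the 9 genes gave 0 calls, 1 with quantile normalization, 4 with each array centred on its median, 2 with an offset of 50 and 0 to 1 when an array was left out. All genes gave 1 call, 14, 588 and 95 under those 3 settings, 0 with no filter, with no trend and with only the stages compared, and 0 to 633 when an array was left out, the highest being without R5 replicate 1, where the lone R5 array is assumed to vary like the other stages. Deviations of same-numbered arrays from their stage means correlated at -0.15 to 0.40, over 0.1 in 10 of 13 pairs, and those of different-numbered arrays at -0.40 to 0.22 over 24 pairs, so the numbers were not taken to pair the arrays, which needed every pair over 0.1. With the replicate number as a block, the 9 genes gave 2 calls (Tac2, adjusted p = 0.0467, and Pdia2, 0.0482, by limma), all genes 169, and the related genes 0 for R2 against R1 and 1 for R5 against R3. Between arrays of the same number R5 was lower than R3 for Tac2 by 5.17 and 3.50, Pdia2 by 2.72 and 2.93, Mrap by 3.15 and 2.56, Tlcd4 by 1.95 and 1.57, and Sphk1 by 1.76 and 0.84. Related genes called for R2 against R1 numbered 1, or 0 with no trend and with only the stages compared, and 0 to 1 when an array was left out. For R3 against R2 they numbered 21, and 8 to 31 when an array was left out. For R5 against R3 they numbered 0, then 3 with centring, 1 with the offset and 0 to 2 when an array was left out. The median difference of the 9 genes from R1 to R2 was 3.32, 2.45 with the offset and 2.87 to 3.89 when an array was left out, and from R2 to R3 it was 0.47 and stayed between 0.07 and 0.81. Signs turned for Myh7b in R5 against R3, from 0.06 to -0.20 with quantile normalization, -0.48 with centring and -0.10 to 0.17 when an array was left out, the negative value being without R3 replicate 3. The sign for Aqp3 in R3 against R2 turned from 0.18 to -0.23 with centring, and the value ran from -0.13 to 0.49 when an array was left out. Signs also turned between probe sets, for Sphk1 (1.52 in R3 against R2 and 0.40 in R5 against R3) and for Aqp3 (-0.85 in R3 against R2). Apart from the offset, which damps dim signals by its construction, the causes were not tested.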
